A study of Homo sapiens with 12 samples.

Results

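The 49 genes described here encode the machinery that copies the genome in S phase. They were taken by symbol from the count tables of both cell lines, which list 39368 genes, and they comprise 10 groups by role: origin recognition, licensing with its inhibitor, the MCM2-7 helicase, helicase activation, polymerases with primase, the clamp with its loader, single-strand binding, Okazaki fragment maturation, nucleotide supply and fork protection. All 49 were listed in both tables and passed the filter on low counts in each line.

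RNA-seq was performed on CAL27 and HSC3 cells, which are established HPV-negative lines of human squamous carcinoma of the tongue and serve as models of head and neck squamous cell carcinoma (HNSCC). Cells of both lines carried tet-MUC1shRNA, a hairpin in a lentiviral vector with puromycin selection, which silences MUC1 once doxycycline (DOX) is added. MUC1 encodes a transmembrane mucin that is cleaved into an extracellular subunit and the C-terminal subunit MUC1-C. For each line, 3 libraries came from cells given vehicle (DMSO at 0.1%) and 3 from cells given DOX at 500 ng/mL, in each case for 7 days, which makes 12 libraries in 4 groups from cultures grown in triplicate. The CAL27 DOX libraries are called a, b and c, in the order in which values are given, since their columns do not carry the samples' numbers. All of these cells carried the same hairpin, and DOX-treated cells with a control hairpin were not analysed here, so MUC1 silencing and DOX itself cannot be told apart. CAL27 cells were grown in DMEM and HSC3 cells in MEM, so the line, its medium and its table cannot be told apart either.

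The libraries held 92866845 to 126328662 counts in CAL27 cells and 89730914 to 169065103 in HSC3 cells. MUC1, the target of the hairpin, stood at 63.9, 58.9 and 59.9 CPM (counts scaled to library size) in vehicle-treated CAL27 cells and at 3.19, 3.06 and 3.58 CPM under DOX. In HSC3 cells it was already low, at 1.51, 1.78 and 1.5 CPM without and 0.279, 0.244 and 0.12 CPM under DOX, the latter from 16 to 46 counts. The groups did not overlap in either line. At the 8.93 to 17.2 counts per molecule estimated below, the HSC3 counts under DOX may stand for few molecules, so the size of the fall there is uncertain. Several counts can come from 1 molecule, as copies or as both reads of a pair where these are counted apart. Their estimated number per molecule was 2.45 to 3.03 (vehicle) and 2.87 to 3.33 (DOX) for CAL27 cells. For HSC3 cells it was 4.18 to 7.43 (vehicle) and 8.93 to 17.2 (DOX), with the 17.2 in DOX replicate 1. The estimate rests on the share of genes at 0 counts, so spread between cultures also raises it and copies were not counted directly. All 10 squamous epithelial markers were detected, led by KRT5. Their summed level was 7440 to 7660 CPM without DOX and 3580 to 3800 CPM with DOX in CAL27 cells, and 6020 to 6700 CPM and 2840 to 3430 CPM in HSC3 cells. By the edgeR test described below, 7 of 10 were called lower in each line. Of all genes, 21.8% were called lower in CAL27 cells and 15.4% in HSC3 cells. EPCAM was called higher in both lines (log2 fold change 0.40 and 0.87), and SFN and CDH1 had no call in either. The part of the fall in the summed level in the results below was not tested. Markers of other cells were low. The 8 fibroblast markers summed to 14.8 to 15.8 CPM without DOX and 11.2 to 11.8 CPM with DOX in CAL27 cells and to 3.84 to 4.57 CPM and 5.37 to 8.49 CPM in HSC3 cells, with COL3A1 at 0 throughout. The 7 immune markers summed to 7.31 to 7.98 CPM and 6.54 to 8.77 CPM in CAL27 cells and to 2.09 to 2.64 CPM and 0.328 to 1.95 CPM in HSC3 cells, where CD3E and NKG7 were at 0. The 5 endothelial markers summed to 16.6 to 16.7 CPM and 9.76 to 13.3 CPM in CAL27 cells and to at most 0.475 CPM in HSC3 cells.

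Replication is prepared in G1 phase, when the origin recognition complex, CDC6 and CDT1 load the MCM2-7 helicase onto origins as an inactive ring. At the start of S phase the CDC7-DBF4 kinase and other factors recruit CDC45 and the GINS complex to that ring and turn it into the active helicase, and polymerases α, δ and ε then copy both strands behind it. Most of these genes are transcribed in late G1 and S phase under the control of E2F factors, which the RB family restrains, and their mRNA level is widely used as a measure of how many cells in a culture are cycling.

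Promoter sequences were read to show the E2F letters in these genes. RefSeq promoters (GRCh38.p14, 250 bases before to 50 after a RefSeq start) were given for 42 of the 49 genes, all but MCM4, MCM5, GINS4, POLD3, RPA2, RPA3 and DNA2. Only 1 start was read per gene, and it can differ from the gene start in GENCODE. For GINS3 the promoter spans 58392221 to 58392520 on chromosome 16, while the GENCODE gene begins at 58295080. Letters at other starts of a gene were not searched. The letters TTTCGCGC, TTTGCCGC, TTTCCCGC, TTTGGCGC or TTTGGCGG stood on either strand in 22 of these 42 promoters (52.4%), against 1378 of all 35116 promoters of that length (3.92%). CCAAT was found in 25 (59.5%, against 34.6% of all promoters) and TTTGAA, the letters of the cell cycle homology region, in 2 (4.76%, against 15.2%). The set of all promoters was not limited to genes expressed in these cells, whereas the 42 genes are expressed, and base composition was not matched. The 160 bases before the start are printed for CDC6, MCM6, CDC45, GINS2 and PCNA. These were higher with DOX in CAL27 cells and lower in HSC3 cells. They are also printed for ORC3, the only member called higher in both in the tests below, and for ORC6, which changed in opposite directions without these letters. Capitals mark the E2F letters, which lie in reverse orientation where they read GCGGGAAA. In MCM6 each run of capitals is a pair of overlapping matches, 1 on each strand.
CDC6: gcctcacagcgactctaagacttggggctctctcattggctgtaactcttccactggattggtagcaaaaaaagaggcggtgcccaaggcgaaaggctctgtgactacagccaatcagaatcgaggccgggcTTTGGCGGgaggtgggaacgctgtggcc
MCM6: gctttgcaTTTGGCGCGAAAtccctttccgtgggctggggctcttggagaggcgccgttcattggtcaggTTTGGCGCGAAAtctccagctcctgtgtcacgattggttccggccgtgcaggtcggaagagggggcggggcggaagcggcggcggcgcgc
CDC45: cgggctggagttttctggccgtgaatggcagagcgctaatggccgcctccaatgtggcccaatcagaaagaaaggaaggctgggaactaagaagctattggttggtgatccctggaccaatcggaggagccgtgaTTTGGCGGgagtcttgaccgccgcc
GINS2: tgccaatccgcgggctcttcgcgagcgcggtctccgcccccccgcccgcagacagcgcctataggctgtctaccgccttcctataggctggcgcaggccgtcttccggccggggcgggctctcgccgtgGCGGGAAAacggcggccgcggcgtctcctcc
PCNA: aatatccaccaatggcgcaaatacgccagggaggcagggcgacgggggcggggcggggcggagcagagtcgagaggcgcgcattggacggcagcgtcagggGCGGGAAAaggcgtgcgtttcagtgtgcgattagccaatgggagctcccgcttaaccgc
ORC3: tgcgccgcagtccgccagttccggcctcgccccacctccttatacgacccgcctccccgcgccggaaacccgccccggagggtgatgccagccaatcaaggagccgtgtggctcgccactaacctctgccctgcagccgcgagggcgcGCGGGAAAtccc
ORC6: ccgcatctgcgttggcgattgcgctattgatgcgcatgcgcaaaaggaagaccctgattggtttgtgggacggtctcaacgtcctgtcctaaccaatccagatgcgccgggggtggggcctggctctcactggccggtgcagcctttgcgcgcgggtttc
The windows lie at chr17:40287719-40287878 (CDC6, plus strand), chr2:135876444-135876603 (MCM6, minus strand), chr22:19479760-19479919 (CDC45, plus strand), chr16:85688955-85689114 (GINS2, minus strand), chr20:5126623-5126782 (PCNA, minus strand), chr6:87589975-87590134 (ORC3, plus strand) and chr16:46689499-46689658 (ORC6, plus strand). The E2F letters begin 28 bases before the start in CDC6, 25 in CDC45, 31 in GINS2, 59 in PCNA and 12 in ORC3. ORC6 holds none of them in this window or in the rest of its promoter. A match of letters is a description of the sequence and was not tested for binding.

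To ask how the replication genes respond to DOX, each line was compared with its own vehicle group by the edgeR quasi-likelihood test, and a gene was called at an adjusted p under 0.05 over all genes tested. Fold changes are on the log2 scale, with their standard error after ±. In CAL27 cells, 37 of the 49 genes were called higher with DOX, none lower and 12 neither, with a median of 0.27 and a range of -0.04 to 0.70. In HSC3 cells, 33 were called lower, 1 higher and 15 neither, with a median of -0.40 and a range of -1.16 to 0.39. At an unadjusted p under 0.05, 39 were higher and 0 lower in CAL27 cells, where DESeq2 also called 0 lower. In HSC3 cells 4 were higher and 35 lower at that unadjusted p, and DESeq2 called 3 higher and 34 lower. Over all genes tested in CAL27 cells, 22.6% were called higher and 21.8% lower, with a median of -0.01, and in HSC3 cells 13% were called higher and 15.4% lower, with a median of -0.01. All 3 DOX libraries lay above all 3 vehicle libraries for 38 genes in CAL27 cells, as for 26% of all genes there. They lay below for 35 genes in HSC3 cells, as for 22.8% of all genes. These are levels in bulk RNA, in which fewer cells in S phase and less of a transcript per cell cannot be told apart.

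The changes were small in size in both lines. With a fold change above 2 required as well, no gene was called in CAL27 cells and only CLSPN in HSC3 cells. Averaged over the 49 genes, the log2 CPM rose in CAL27 cells from 6.07 ± 0.0196 to 6.36 ± 0.00793 and fell in HSC3 cells from 5.43 ± 0.02 to 5.06 ± 0.0591 (mean ± SD, n = 3 each), without overlap of the libraries. The 49 genes took 0.485% to 0.497% of all counts without DOX and 0.578% to 0.587% under it in CAL27 cells. Their share in HSC3 cells was 0.344% to 0.35% and 0.26% to 0.276%. The number of counts per molecule also moved with DOX in HSC3 cells and was highest in HSC3 DOX replicate 1. That library held the lowest level of its group for 24 of the 49 genes, against 12 and 13 for replicates 2 and 3. It held the highest level for 17 genes, against 24 and 8. The part of the counts per molecule in these calls was not tested. Without HSC3 DOX replicate 1, 34 genes were called lower and 3 higher in HSC3 cells.

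**Figure D1:**
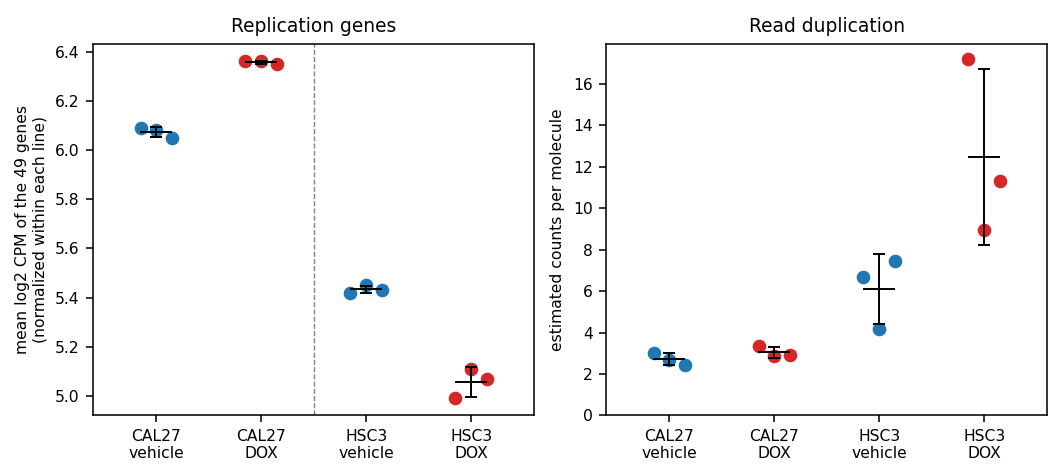
Mean log2 CPM of the 49 replication genes in each library, normalized within each line so that levels to the left and right of the dashed line are not on 1 scale (left panel), and estimated counts per molecule (right panel). The estimate does not tell copied reads from reads of a pair counted apart or from spread between cultures. Points are libraries and bars are the mean ± SD of 3, and the CAL27 DOX libraries (6.35 to 6.36) lie above their vehicle group while the HSC3 DOX libraries (4.99 to 5.11) lie below theirs and hold 8.93 to 17.2 counts per molecule.

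The difference between the responses (HSC3 minus CAL27) was tested itself, as the interaction of line and DOX in 1 fit of the 12 libraries. The response was lower in HSC3 cells for 42 of the 49 genes and higher for none, with a median difference of -0.69 and a range of -1.62 to 0.21. No gene had a higher response at an unadjusted p under 0.05 or by DESeq2 (0 in each). Of all genes tested, 12.3% were called lower and 8.25% higher in this comparison, with a median of -0.02. The calls of MCM7, GINS4, POLA2, POLD1 and POLD3 in this comparison were each lost under at least 1 alternative. The 7 genes without a call were ORC2, ORC3, ORC5, CDT1, POLD2, RPA2 and RPA3. In all, 25 of the 49 genes (51%) were called higher in CAL27 cells and lower in HSC3 cells, as were 406 of the 17164 genes tested in both lines (2.37%). A further 11 (22.4%) were called only in CAL27 cells, all higher, as were 14.8% of the genes tested in both lines. Another 8 (16.3%) were called only in HSC3 cells, all lower, as were 4.85% of those genes. ORC3 (2.04%) was called higher in both, as were 7.82% of all genes. ORC2, GINS4, POLD2 and RPA3 (8.16%) were called in neither, as were 43.8%.

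**Figure D2:**
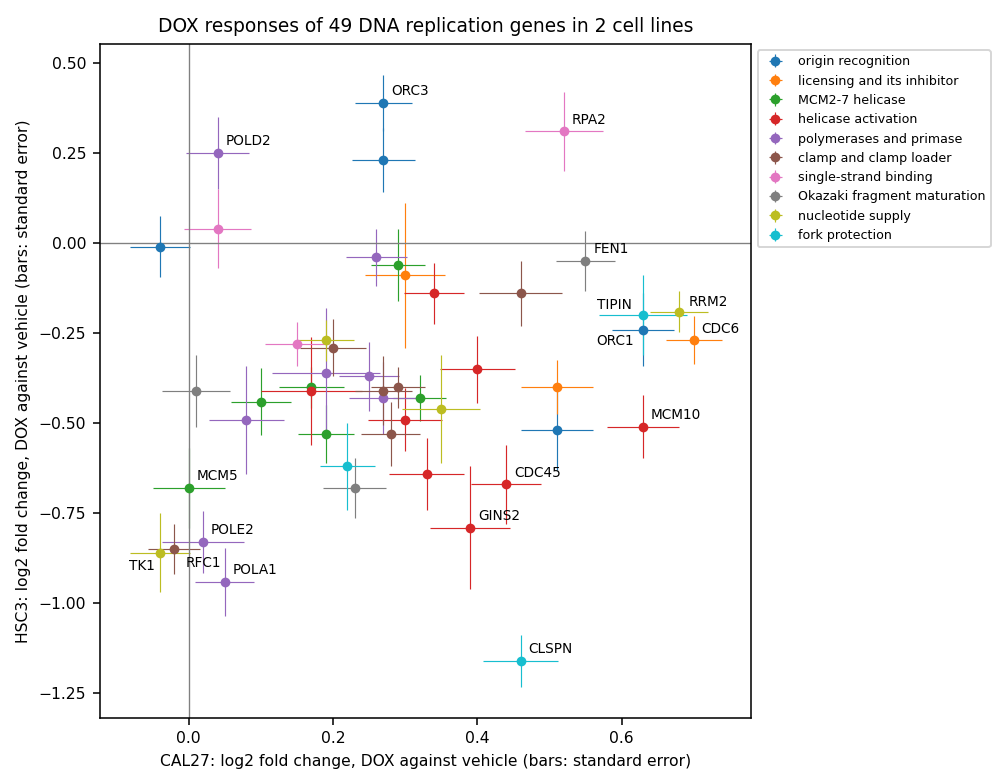
Log2 fold change with DOX in CAL27 cells (horizontal axis) against that in HSC3 cells (vertical axis) for each of the 49 genes, coloured by role, with standard errors as bars. Most points, 41 of 49, lie in the lower right part, CLSPN is lowest at -1.16 in HSC3 cells, and POLA1, POLE2, RFC1 and TK1 lie near 0 in CAL27 cells.

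Genes with a large change in 1 line did not all have a large change in the other. Across the 49 genes the fold changes of the lines gave a Pearson r of 0.16 and a Spearman rho of 0.19, while across all 17164 genes tested in both lines r was 0.39. These values are across genes of the same libraries, which are not independent replicates, and are given without a p. The genes with the largest falls in HSC3 cells included several, such as POLA1 and RFC1, that did not pass the test in CAL27 cells. Of the genes with large rises in CAL27 cells, CDC6 and RRM2 fell by less in HSC3 cells than the median member, whereas MCM10 and ORC6 fell by more (0.51 and 0.52).

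The origin recognition complex, which marks the sites where replication can start, had no shared direction in HSC3 cells. Of the 5 subunits among the 49 genes, 4 were called higher in CAL27 cells, and in HSC3 cells 1 was called lower and 1 higher, with medians of 0.27 and -0.01. The sixth subunit, ORC4, which is not among the 49, was at -0.03 and 0.06 without a call. ORC1, the subunit that is made and destroyed with each cell cycle, stood at 47.2, 44.9 and 44 CPM without DOX and 70.8, 69.5 and 70.4 with DOX in CAL27 cells (0.63 ± 0.043, edgeR adjusted p = 2.9e-10). In HSC3 cells it stood at 24.5, 25.2 and 22.9 CPM and 17.9, 22.5 and 20.9 CPM (-0.24 ± 0.1, edgeR adjusted p = 0.11). The groups did not overlap in either line, but only the rise in CAL27 cells passed the test, and the responses differed (-0.88 ± 0.11, edgeR adjusted p = 3.4e-05). In the fit of all 12 libraries the fall of ORC1 in HSC3 cells passed it too (-0.24, edgeR adjusted p = 0.022). ORC6, the smallest subunit, stood at 26.2, 28 and 26.5 CPM without DOX and 38, 39.5 and 37.3 with DOX in CAL27 cells (0.51 ± 0.05, edgeR adjusted p = 5.4e-08), and at 12, 13.3 and 13.4 CPM and 9.1, 8.3 and 9.54 CPM in HSC3 cells (-0.52 ± 0.11, edgeR adjusted p = 0.0047). It thus rose without overlap in CAL27 cells and fell without overlap in HSC3 cells (difference -1.03 ± 0.11, edgeR adjusted p = 7.1e-06).

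ORC3, a core subunit of the same complex, was the only gene of the 49 called higher in HSC3 cells, although under some alternatives others were too. It stood at 46.3, 49.2 and 52 CPM without DOX and 68.8, 60.3 and 63.8 with DOX there (0.39 ± 0.078, edgeR adjusted p = 0.0034), and at 80.1, 84.5 and 79.9 CPM and 100, 96.7 and 98.3 CPM in CAL27 cells (0.27 ± 0.04, edgeR adjusted p = 1.1e-05). Every DOX library lay above every vehicle library in both lines, and the difference between the responses did not pass the test (0.12 ± 0.088, edgeR adjusted p = 0.42). ORC5 was higher in CAL27 cells (0.27) and at 0.23 in HSC3 cells, where it did not pass the test (adjusted p = 0.077). It passed there in the fit of all 12 libraries (adjusted p = 0.019) and without DOX replicate 2 (0.047). ORC2 was at -0.04 and -0.01. The promoter of ORC3 holds the E2F letters printed above and that of ORC6 does not.

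The licensing factors and their inhibitor rose in CAL27 cells, all 3 of them, and 2 of 3 fell in HSC3 cells. CDC6 (chromosome 17, 40287879 to 40304657, plus strand, GENCODE v44 on GRCh38), which loads the MCM2-7 ring together with CDT1, stood at 101, 103 and 97.7 CPM without DOX and 159, 163 and 166 with DOX in CAL27 cells, the largest rise among the 49 genes there (0.70 ± 0.039, edgeR adjusted p = 1.4e-11). In HSC3 cells it stood at 107, 100 and 104 CPM and 89.2, 79.9 and 88.1 CPM (-0.27 ± 0.067, edgeR adjusted p = 0.011). Neither pair of groups overlapped, and the responses differed by -0.97 ± 0.076 (edgeR adjusted p = 6.2e-07). Without HSC3 vehicle replicate 1 the fall in HSC3 cells no longer passed the test (adjusted p = 0.06). GMNN encodes geminin, which binds CDT1 and blocks licensing in S and G2 phase. It rose from 33, 33.1 and 33.9 CPM to 48.6, 49.3 and 44.1 CPM in CAL27 cells (0.51 ± 0.05, edgeR adjusted p = 5.9e-08) and fell from 42.9, 43.8 and 41 CPM to 31.8, 33.3 and 31.8 CPM in HSC3 cells (-0.40 ± 0.074, edgeR adjusted p = 0.002), again without overlap. CDT1 itself rose by 0.30 ± 0.055 (edgeR adjusted p = 0.00018) in CAL27 cells and was at -0.09 ± 0.2 (edgeR adjusted p = 0.8) in HSC3 cells, where its libraries overlapped. Its call in CAL27 cells was lost in the fit of all 12 libraries (adjusted p = 0.22).

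The 6 subunits of the MCM2-7 ring, the replicative helicase, were all lower in HSC3 cells relative to CAL27 cells in their response, and 5 of 6 fell in HSC3 cells while 4 of 6 rose in CAL27 cells. MCM3 stood at 225, 222 and 221 CPM without DOX and 275, 272 and 285 with DOX in CAL27 cells (0.32 ± 0.037, edgeR adjusted p = 5.7e-07), and at 286, 301 and 286 CPM and 203, 227 and 220 CPM in HSC3 cells (-0.43 ± 0.063, edgeR adjusted p = 0.00047). MCM6, whose promoter holds 4 E2F matches, stood at 160, 157 and 162 CPM and 188, 184 and 174 CPM in CAL27 cells (0.19 ± 0.039, edgeR adjusted p = 0.00053) and at 68.2, 74.4 and 78 CPM and 52.7, 53.5 and 47 CPM in HSC3 cells (-0.53 ± 0.08, edgeR adjusted p = 0.00055). For both genes the groups were apart in each line, upwards in CAL27 cells and downwards in HSC3 cells. MCM5 was at 0.00 in CAL27 cells (edgeR adjusted p = 1) and fell in HSC3 cells (-0.68 ± 0.11, edgeR adjusted p = 0.00087). MCM7 rose in CAL27 cells (0.29 ± 0.038, edgeR adjusted p = 2.5e-06) and was at -0.06 in HSC3 cells (edgeR adjusted p = 0.75). The call of MCM7 for the difference (-0.35 ± 0.11, edgeR adjusted p = 0.04) was lost with library totals (adjusted p = 0.054), without a filter on low counts (0.079) and without any 1 of the libraries other than HSC3 DOX replicates 1 and 2 (0.051 to 0.1). MCM4 rose by 0.17, a call lost without vehicle replicate 3 (adjusted p = 0.074), and fell by 0.40, and MCM2 was at 0.10 in CAL27 cells (adjusted p = 0.053) and fell by 0.44 in HSC3 cells.

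Factors that turn the loaded ring into an active helicase had the largest median difference between the lines among the groups of 6 or more genes. Of these 8 genes, 7 rose in CAL27 cells (group median 0.37), 6 fell in HSC3 cells (median -0.50), and for all 8 the difference between the responses passed the test (median -0.88). MCM10, which is needed for the ring to open and move, rose from 31.4, 33.2 and 31.1 CPM to 46.5, 49.9 and 51.1 CPM in CAL27 cells (0.63 ± 0.05, edgeR adjusted p = 2.9e-09). It fell from 32.5, 33.4 and 33.5 CPM to 21.3, 25 and 23.6 CPM in HSC3 cells (-0.51 ± 0.087, edgeR adjusted p = 0.0012). CDC45, which is part of the moving helicase, stood at 31.5, 30.6 and 31.2 CPM without DOX and 42.8, 44.2 and 39.9 with DOX in CAL27 cells (0.44 ± 0.049, edgeR adjusted p = 3.3e-07), and at 27, 26.8 and 26 CPM and 15, 19.6 and 15.7 CPM in HSC3 cells (-0.67 ± 0.11, edgeR adjusted p = 0.00095). Both genes moved without overlap in each line. With vehicle, on the scale of the 12 libraries, the difference of CDC45 between the lines did not pass the test (0.05 ± 0.084, edgeR adjusted p = 0.64) and MCM10 was higher in HSC3 cells (0.33 ± 0.066, edgeR adjusted p = 0.00041).

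GINS1 to GINS4 form the 4-part GINS complex, the partner of CDC45. GINS2 rose from 35, 34.7 and 35.4 CPM to 45.3, 50.2 and 42.3 CPM in CAL27 cells (0.39 ± 0.055, edgeR adjusted p = 7.3e-06) and fell from 11, 12.9 and 13.3 CPM to 5.29, 8.38 and 7.78 CPM in HSC3 cells (-0.79 ± 0.17, edgeR adjusted p = 0.0048). GINS3 rose from 22.3, 22.6 and 22.2 CPM to 28.8, 27.7 and 27.7 CPM in CAL27 cells (0.33 ± 0.052, edgeR adjusted p = 2.5e-05) and fell from 16.8, 16.3 and 15.6 CPM to 10.1, 11.1 and 10.2 CPM in HSC3 cells (-0.64 ± 0.1, edgeR adjusted p = 0.0007). Both were apart in all libraries, although GINS2 spread more widely in HSC3 cells, where its level in DOX replicate 1 (5.29 CPM) was well below the others. The responses of GINS2 differed by -1.18 ± 0.18 (edgeR adjusted p = 0.00025), and those of GINS3 by -0.96 ± 0.097 (edgeR adjusted p = 6.1e-06). GINS1 also rose and fell (0.40 and -0.35), but its call in HSC3 cells was lost without vehicle replicate 2 or 3 or DOX replicate 2 or 3 (adjusted p = 0.054 to 0.091). GINS4 did not pass the test in either line (0.17 and -0.41, adjusted p = 0.054 and 0.06) but did for the difference (-0.58, adjusted p = 0.02). In HSC3 cells GINS4 passed it with DESeq2 (adjusted p = 0.034), in the fit of all 12 libraries (0.013), with a count minimum of 50 (0.049), without a filter (0.04) and without DOX replicate 2 (0.014), and in CAL27 cells without a filter (0.041), vehicle replicate 1 (0.028) or DOX library c (0.022). The call for the difference was lost without CAL27 vehicle replicate 2 or 3, CAL27 DOX library a or HSC3 DOX replicate 3 (adjusted p = 0.057 to 0.066). The kinase CDC7 rose by 0.30 and fell by 0.49, and its regulatory subunit DBF4 rose by 0.34 in CAL27 cells and was at -0.14 in HSC3 cells (adjusted p = 0.26).

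**Figure D3:**
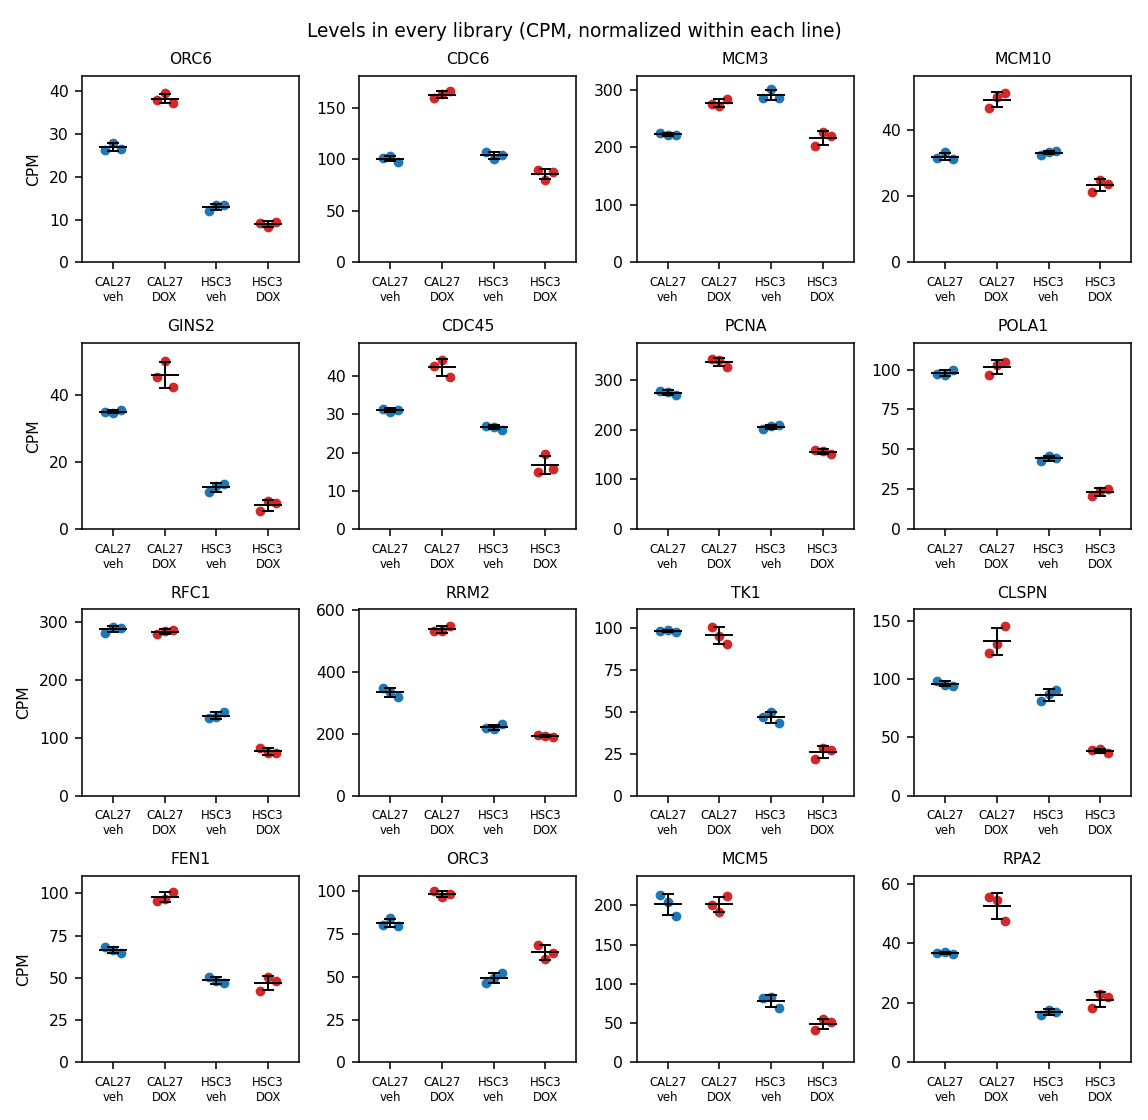
CPM of 16 replication genes in each of the 12 libraries, normalized within each line, with blue points for vehicle and red for DOX and bars for the mean ± SD of 3 libraries. In CDC6, MCM10 and CLSPN the red points lie above the blue ones in CAL27 cells and below them in HSC3 cells, in POLA1, RFC1 and TK1 they part only in HSC3 cells, and in FEN1 only in CAL27 cells.

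Among the polymerases and primase, 4 of 8 genes rose in CAL27 cells (median 0.14) and 5 of 8 fell in HSC3 cells (median -0.40). POLA1 (chromosome X, 24693873 to 24996986, plus strand), the catalytic subunit of polymerase α, which extends the RNA primer, stood at 97, 96.9 and 100 CPM without DOX and 96.6, 103 and 105 with DOX in CAL27 cells (0.05 ± 0.041, edgeR adjusted p = 0.4). In HSC3 cells it stood at 42.5, 46 and 44.4 CPM and 20.4, 23.9 and 25.2 CPM, or 0.523 of the vehicle level (-0.94 ± 0.094, edgeR adjusted p = 3.1e-05). The libraries overlapped in CAL27 cells and were far apart in HSC3 cells. POLE2, an accessory subunit of the leading-strand polymerase ε, stood at 28.2, 26.2 and 26 CPM and 25.5, 27.4 and 28.4 CPM in CAL27 cells (0.02 ± 0.057, edgeR adjusted p = 0.85) and at 33.7, 33.7 and 32.9 CPM and 18.5, 20.2 and 17.8 CPM in HSC3 cells (-0.83 ± 0.085, edgeR adjusted p = 3.6e-05), with overlap only in CAL27 cells. The difference between the responses was -0.98 ± 0.096 (edgeR adjusted p = 4.8e-06) for POLA1 and -0.84 ± 0.098 (edgeR adjusted p = 2.2e-05) for POLE2.

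In the other subunits the values in HSC3 cells were smaller in size. POLE, the catalytic subunit of polymerase ε, rose by 0.25 in CAL27 cells and fell by 0.37 in HSC3 cells, and PRIM1, the catalytic subunit of primase, rose by 0.27 and fell by 0.43. POLD1, the catalytic subunit of the lagging-strand polymerase δ, was at 0.08 in CAL27 cells and fell by 0.49 in HSC3 cells (edgeR adjusted p = 0.03). POLD3 rose by 0.26 in CAL27 cells and was at -0.04 in HSC3 cells (edgeR adjusted p = 0.77). POLD2 was at 0.04 and 0.25, without a call in either line. In HSC3 cells POLD2 passed with DESeq2 (adjusted p = 0.037), in the fit of all 12 libraries (0.03) and without DOX replicate 1 (0.37, adjusted p = 4.4e-05). Of these genes only POLE and PRIM1 passed the test in both lines, and the call of POLE in HSC3 cells was lost without vehicle replicate 1 or 2 (adjusted p = 0.064 and 0.05). POLA2 was at 0.19 in CAL27 cells (edgeR adjusted p = 0.046), a call that was lost without any of 5 of the 6 libraries. The call of POLD1 in HSC3 cells was lost without vehicle replicate 1, vehicle replicate 2 or DOX replicate 3 (adjusted p = 0.14, 0.11 and 0.059).

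The sliding clamp and its loader mostly moved together, with 5 of 6 genes higher in CAL27 cells and 5 of 6 lower in HSC3 cells. PCNA, the ring that holds polymerases on DNA, stood at 278, 275 and 269 CPM without DOX and 341, 339 and 326 with DOX in CAL27 cells (0.29 ± 0.037, edgeR adjusted p = 2.0e-06) and at 201, 207 and 209 CPM and 159, 157 and 151 CPM in HSC3 cells (-0.40 ± 0.057, edgeR adjusted p = 0.00034). These are changes by factors of 1.22 and 0.756, with a narrow spread in every group. RFC1 (chromosome 4, 39287456 to 39366375, minus strand), the large subunit of the loader that opens the ring, stood at 282, 291 and 290 CPM and 279, 285 and 287 CPM in CAL27 cells (-0.02 ± 0.036, edgeR adjusted p = 0.7) and at 134, 136 and 145 CPM and 82.9, 73.3 and 73.7 CPM in HSC3 cells (-0.85 ± 0.07, edgeR adjusted p = 7.9e-06). Its libraries overlapped in CAL27 cells and fell to 0.554 of the vehicle level in HSC3 cells. The small subunits RFC2, RFC3 and RFC5 rose by 0.28, 0.27 and 0.20 in CAL27 cells and fell by 0.53, 0.41 and 0.29 in HSC3 cells, with the call of RFC5 in HSC3 cells lost without vehicle replicate 2 or 3 or DOX replicate 2 (adjusted p = 0.092, 0.068 and 0.068), and RFC4 rose by 0.46 in CAL27 cells and was at -0.14 in HSC3 cells (edgeR adjusted p = 0.29). Among the 5 RFC genes, RFC1 thus had the lowest value in both lines.

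Of the 3 subunits of replication protein A, which coats single-stranded DNA, 2 rose in CAL27 cells and 1 fell in HSC3 cells, with medians of 0.15 and 0.04. RPA1, the large subunit, stood at 138, 143 and 145 CPM and 166, 157 and 147 CPM in CAL27 cells (0.15 ± 0.044, edgeR adjusted p = 0.0099), a rise that no longer passed the test without vehicle replicate 1 or DOX library a (adjusted p = 0.068 and 0.079), and at 98.7, 94.5 and 96.7 CPM and 81.7, 80.9 and 76.9 CPM in HSC3 cells (-0.28 ± 0.062, edgeR adjusted p = 0.0063). RPA2 stood at 36.8, 37 and 36.5 CPM and 55.5, 54.6 and 47.6 CPM in CAL27 cells (0.52 ± 0.054, edgeR adjusted p = 1.3e-07) and at 15.9, 17.7 and 17 CPM and 18.1, 22.9 and 21.9 CPM in HSC3 cells (0.31 ± 0.11, edgeR adjusted p = 0.052). Every DOX library of RPA2 lay above the vehicle libraries in both lines. Its difference in HSC3 cells did not pass the threshold here. It passed by DESeq2 (0.32, adjusted p = 0.017), in the fit of all 12 libraries (0.0099), with DESeq2's size factors (0.038) and after division by counts per molecule (0.027). It also passed with a count minimum of 50 (0.042), without a filter (0.044) and without HSC3 DOX replicate 1 (0.41, adjusted p = 0.001). Under the remaining alternatives RPA2 did not pass in HSC3 cells. RPA3 was at 0.04 in both lines, with adjusted p of 0.59 and 0.83.

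Okazaki fragment maturation joins the short pieces of the lagging strand, and 2 of its 3 genes rose in CAL27 cells and 2 fell in HSC3 cells. FEN1, the nuclease that trims the flap, rose from 68.1, 66.4 and 64.9 CPM to 95.6, 96.5 and 101 CPM in CAL27 cells (0.55 ± 0.041, edgeR adjusted p = 8.5e-10) and stood at 50.7, 48.4 and 46.8 CPM and 42.1, 50.3 and 48.4 CPM in HSC3 cells (-0.05 ± 0.084, edgeR adjusted p = 0.72), where the groups overlapped. DNA2, the nuclease for long flaps, rose from 46.4, 44.4 and 45.6 CPM to 51.4, 54.4 and 53.7 CPM in CAL27 cells (0.23 ± 0.044, edgeR adjusted p = 0.00026) and fell from 42.4, 45.4 and 45.3 CPM to 28.7, 25.4 and 29.2 CPM in HSC3 cells (-0.68 ± 0.084, edgeR adjusted p = 0.00014), with no overlap. LIG1, the ligase that seals the nick, was at 0.01 in CAL27 cells (edgeR adjusted p = 0.94) and fell by 0.41 in HSC3 cells (edgeR adjusted p = 0.011), a call lost without vehicle replicate 1 or 2 (adjusted p = 0.051 and 0.07). For all 3 the response was lower in HSC3 cells, by -0.60 ± 0.089 (edgeR adjusted p = 0.00018) for FEN1, -0.90 ± 0.092 (edgeR adjusted p = 6.8e-06) for DNA2 and -0.41 ± 0.099 (edgeR adjusted p = 0.0078) for LIG1.

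Nucleotide supply covers ribonucleotide reductase, which makes deoxynucleotides, thymidylate synthase and thymidine kinase. All 4 genes fell in HSC3 cells and 3 rose in CAL27 cells. RRM2, the regulated subunit of the reductase, rose from 350, 336 and 321 CPM to 533, 532 and 551 CPM in CAL27 cells (0.68 ± 0.04, edgeR adjusted p = 3.0e-11). In HSC3 cells it stood at 218, 215 and 231 CPM and 197, 195 and 191 CPM (-0.19 ± 0.057, edgeR adjusted p = 0.033), a small shift without overlap. That call was lost with DESeq2's size factors (adjusted p = 0.062), without a filter on low counts (0.055) and without any vehicle library or DOX replicate 2 or 3 (0.072 to 0.15). TK1, the salvage kinase for thymidine, stood at 98.4, 99.1 and 97.9 CPM and 101, 95.7 and 90.7 CPM in CAL27 cells (-0.04 ± 0.042, edgeR adjusted p = 0.46) and at 46.8, 49.9 and 43.7 CPM and 21.8, 28.6 and 27.1 CPM in HSC3 cells (-0.86 ± 0.11, edgeR adjusted p = 0.00015). TK1 thus overlapped in CAL27 cells and was well apart in HSC3 cells. RRM1, the large subunit of the reductase, rose by 0.19 and fell by 0.27. TYMS rose by 0.35 and fell by 0.46 (edgeR adjusted p = 0.037), a fall that did not pass the test without vehicle replicate 2 or 3 or DOX replicate 2 or 3 (adjusted p = 0.05 to 0.15). For TYMS, 47.9% of the exon bases lie under ENOSF1 and TYMSOS on the other strand, whose reads cannot be told apart without knowledge of the strand setting.

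Fork protection held the gene with the largest difference between the lines. CLSPN (chromosome 1, 35720218 to 35769978, minus strand) encodes claspin, which travels with the fork and passes the ATR signal to CHK1. It rose from 98.6, 95 and 94.3 CPM to 122, 130 and 145 CPM in CAL27 cells, 1.38-fold (0.46 ± 0.052, edgeR adjusted p = 9.2e-07), and fell from 81.1, 87.1 and 90.6 CPM to 39, 40.1 and 36.5 CPM in HSC3 cells, to 0.447 of the vehicle level (-1.16 ± 0.073, edgeR adjusted p = 1.3e-06). No library of 1 group fell within the range of the other in either line. With vehicle the difference between the lines did not pass the test (0.12 ± 0.066, edgeR adjusted p = 0.12), and the responses differed by -1.62 ± 0.094 (edgeR adjusted p = 3.8e-08). TIPIN, the partner of TIMELESS in the complex that steadies stalled forks, rose from 16.4, 14.8 and 16.1 CPM to 25.3, 24.6 and 23.4 CPM in CAL27 cells (0.63 ± 0.061, edgeR adjusted p = 4.3e-08) and stood at 10.9, 12.3 and 11.9 CPM and 11, 10.2 and 9.47 CPM in HSC3 cells (-0.20 ± 0.11, edgeR adjusted p = 0.24). Its libraries overlapped only in HSC3 cells, and the responses differed by -0.83 ± 0.12 (edgeR adjusted p = 0.00019). TIMELESS rose by 0.22 in CAL27 cells, a call lost in the fit of all 12 libraries (adjusted p = 0.089), and fell by 0.62 in HSC3 cells (edgeR adjusted p = 0.0027).

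**Figure D4:**
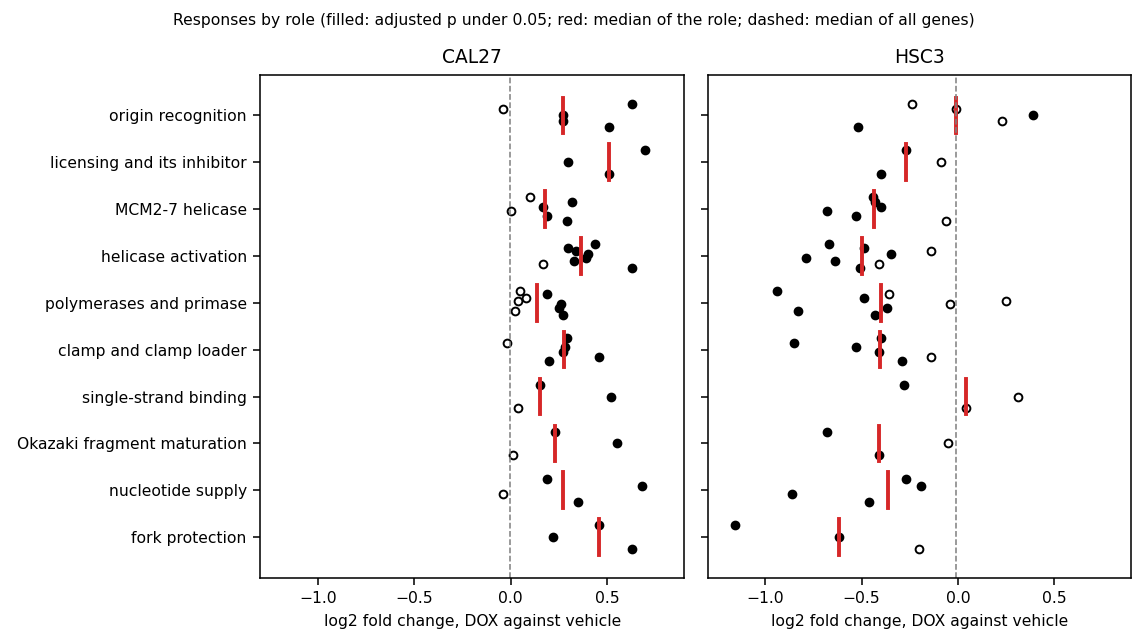
Log2 fold change with DOX in CAL27 cells (left) and HSC3 cells (right) for the genes of each role, with filled points for an adjusted p under 0.05, red bars for the role's median and a dashed line for the median of all genes tested. All filled points are right of the dashed line in CAL27 cells, and in HSC3 cells all but ORC3 are left of it.

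With vehicle, most of the replication genes were lower in HSC3 cells than in CAL27 cells. Comparing the vehicle groups in the fit of the 12 libraries, 32 of the 49 genes were called lower in HSC3 cells, 11 higher and 6 neither, with a median of -0.29. Of all genes tested, 32.3% were called lower and 30.6% higher, with a median of -0.12, so calls in either direction were common in this comparison. MCM7 (-1.62 ± 0.081, edgeR adjusted p = 7.8e-11), RPA3 (-1.50 ± 0.091, edgeR adjusted p = 7.4e-10) and TYMS (-1.27 ± 0.1, edgeR adjusted p = 2.3e-08) were furthest below CAL27 cells. RRM1 (0.70 ± 0.05, edgeR adjusted p = 5.2e-09), MCM3 (0.66 ± 0.049, edgeR adjusted p = 9.4e-09) and GMNN (0.63 ± 0.06, edgeR adjusted p = 1.8e-07) were furthest above. Scaling by library totals in place of TMM gave 37 lower and 6 higher, with a median of -0.56, and moved the median of all genes to -0.39. With DOX the median gap was -0.99, with 47 of the 49 genes lower in HSC3 cells and 24 of them by more than 2-fold, against 35 and 8 with vehicle. Of all 20694 genes tested, 11245 were lower in HSC3 cells with vehicle. Of these, 3862 were called lower by more than 2-fold, a share no smaller than 8 of 49. The gap with DOX is the vehicle gap plus the difference between the responses, so its increase restates that difference. It was not computed over all genes.

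Per length of annotated exon, the abundances ran over a wide range. That length joins the exons of all annotated transcripts of a gene (1403 bases for PCNA, 9153 for RRM2). It can exceed the length of the mRNA, so the order given here depends on the annotation. By mean CPM in vehicle-treated CAL27 cells, RRM2 (336) stood above RRM1 (301) and PCNA (274). Levels per kilobase of exon and library size (RPKM), set on 1 scale over the 12 libraries, were highest for PCNA in every group (177 and 217 in CAL27 vehicle and DOX, 161 and 122 in HSC3). RRM1 (64.6, 73.7, 105 and 87) and MCM3 (55.5, 69.2, 87.7 and 65.5) came next in each group, and POLA2, a subunit of polymerase α, was lowest (0.75, 0.857, 0.414 and 0.323). The order of RRM1 and MCM3 below PCNA was thus the same in all 4 groups. The median over the 49 genes was 13.2 and 16.9 in the CAL27 groups and 10.7 and 8.4 in the HSC3 groups.

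The responses were also set against the E2F letters in the promoters. For the 22 genes with the letters the median change was 0.29 (CAL27) and -0.44 (HSC3), with 17 called higher, 18 called lower and 13 in opposite directions. The 20 without them had medians of 0.28 and -0.28, with 16 higher, 12 lower and 10 in opposite directions. POLA1, POLE2 and RFC1, which passed the test only in HSC3 cells, hold the letters, and TK1 does not. CDC6 and RRM2, with the largest rises in CAL27 cells, differ in the same way, since only CDC6 holds them.

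Other genes of the cell cycle were described from lists of 43 further replication genes, 30 mitotic genes and 19 genes of the E2F and RB families. Of the 43, 30 were called higher and 1 lower in CAL27 cells (median 0.19) and 17 lower and 3 higher in HSC3 cells (median -0.21), and the response was lower in HSC3 cells for 23 and higher for 1. UNG, which removes uracil from DNA (0.30 ± 0.042, edgeR adjusted p = 6.2e-06 in CAL27 cells and -0.79 ± 0.08, edgeR adjusted p = 3.1e-05 in HSC3 cells), DTL, which targets CDT1 for destruction (0.48 and -0.36), and TOPBP1, a scaffold of origin firing (0.20 and -0.55), had the smallest adjusted p for the difference. The gene called lower in CAL27 cells was PCLAF, a PCNA-binding protein, which fell in both lines (-0.36 and -0.95). The 3 called higher in HSC3 cells were TOP1, a topoisomerase that relaxes DNA ahead of the fork, which rose in both lines (0.46 and 0.51), POLD4, the smallest subunit of polymerase δ (0.02 and 0.58), and RRM2B, the p53-inducible subunit of the reductase, which was at 0.11 in CAL27 cells (adjusted p = 0.062) and rose by 0.48 in HSC3 cells. PCLAF, TOP1, POLD4 and RRM2B were chosen after their values were seen.

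Mitotic genes, which are transcribed later in the cycle, were mostly higher with DOX in CAL27 cells too. Of the 30, 22 were called higher and 1 lower in CAL27 cells (median 0.17), 18 lower in HSC3 cells (median -0.30), and 26 had a lower response in HSC3 cells. ANLN, TPX2 and KIF23, which act in spindle assembly and in cell division, changed by 0.65, 0.19 and 0.52 in CAL27 cells. In HSC3 cells only the fall of TPX2, by 0.46, passed the test, with ANLN at -0.15 and KIF23 at -0.14 (adjusted p = 0.075 and 0.17). In the E2F and RB list, 11 were higher and 3 lower in CAL27 cells (median 0.23) and 5 lower in HSC3 cells (median -0.15). E2F7, a repressor that E2F itself induces, rose by 0.74 in CAL27 cells and was at -0.15 in HSC3 cells (adjusted p = 0.19), and FOXM1, a driver of mitotic transcription, rose by 0.39 and fell by 0.30. RBL1, the RB relative p107, fell in both lines, by 0.40 in CAL27 cells (edgeR adjusted p = 8.3e-08) and by 1.79 in HSC3 cells (edgeR adjusted p = 1.6e-07).

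Annotation limits some of these values. In GENCODE v44, 12 of the 49 genes have pseudogenes that carry their name, among them PCNA and RRM2 with 3 each, and reads of such copies could be split or lost by the counting. POLA2, PRIM1 and TIPIN share 16.8%, 15.1% and 21.1% of their exon bases with another gene on the same strand. On the opposite strand, apart from TYMS, more than 10% is shared for MCM2 (23.6%), GINS4 (23.4%), GINS3 (10.9%) and RFC5 (10.6%).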

How the data were processed

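Total RNA was extracted with TRIzol and sequenced as TruSeq Stranded mRNA libraries. The authors deposited 1 table of counts per cell line, with whole-number gene counts that had not been normalized, 39368 gene symbols each and no row without a gene name. The submitters' processing notes name FastQC 0.11.9, STAR 2.7.9a, Subread 2.0.1 and featureCounts, on GRCh38. The annotation, the strand setting and the treatment of duplicated and multiply mapped reads are not given in the sources used here, and each of them bears on genes with overlaps or pseudogenes. In the CAL27 table the DOX columns do not carry the samples' numbers, so those libraries are called a, b and c.

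From these counts, each line was fitted alone in R 4.3.3 with edgeR 4.0.16 (TMM, filterByExpr set to 10 counts per library and 15 in total, robust glmQLFit, two-sided glmQLFTest), and p-values were adjusted by Benjamini and Hochberg's method across every gene tested. The difference between the responses and the vehicle comparison came from 1 fit of the 12 libraries. DESeq2 1.42.0, which the authors used in a version not given in the sources used here, was an alternative, beside other scalings, filters, a fold change above 2 and leaving out each library. CPM are TMM-normalized within each line, and their precision at this depth is set by the spread of 3 cultures. The standard error is the fold change divided by the square root of F. The number of counts per molecule was derived from the share of zeros among genes expected at 8 to 16 counts from the other replicates. It takes molecules to vary only by Poisson sampling. The scripts were tested on simulated counts. No pair of replicates held the same counts (0.646% to 3.34% of genes equal), and the replicate numbers of the HSC3 libraries did not pair them.

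The 49 genes, their roles and the other gene lists were chosen with earlier results of these data known, so lists are described by counts and medians without a test. Values in every library are given for the 2 genes of each role with the smallest adjusted p of the difference, the 5 genes with the largest difference among those called in opposite directions, and genes called against the direction of their line. In the other lists the 3 genes with the smallest adjusted p of the difference are named. RefSeq promoter sequences were searched on both strands, and coordinates are from GENCODE v44. The value of 1 immune marker is not reported here.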

Additional observations from a re-analysis of the deposited data

Results flagged for a closer look

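For 25 of the 49 genes the DOX response passed the test upwards in CAL27 cells and downwards in HSC3 cells, and the difference between the responses (HSC3 minus CAL27, log2, edgeR quasi-likelihood test) passed it too. The difference was -1.62 for CLSPN, -1.18 for GINS2, -1.13 for MCM10, -1.11 for CDC45 and -1.03 for ORC6, which are the 5 largest. It was -0.97 for CDC6, -0.96 for GINS3, -0.90 for GMNN, -0.90 for DNA2, -0.87 for RRM2, -0.84 for TIMELESS, -0.81 for RFC2, -0.81 for TYMS, -0.79 for CDC7 and -0.75 for GINS1. In the others it was -0.74 for MCM3, -0.71 for MCM6, -0.70 for PRIM1, -0.69 for PCNA, -0.68 for RFC3, -0.63 for POLE, -0.56 for MCM4, -0.49 for RFC5, -0.46 for RRM1 and -0.42 for RPA1. Adjusted p ranged from 3.8e-08 for CLSPN to 0.0013 for RFC5. The number of counts per molecule was higher in the HSC3 DOX libraries (8.93 to 17.2) than in any other group, and its part in these calls was not tested. Neither was that of DOX itself without silencing of MUC1. With 3 libraries in a group, no search for outlying libraries was made.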

How the results depend on the processing

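Of the called genes, 32 of 37 in CAL27 cells, 26 of 34 in HSC3 cells and 37 of 42 in the difference between the lines kept their direction and their side of the threshold under every alternative except the fold change above 2, and 16 of the 25 genes called in opposite directions did so in both lines. With a fold change above 2 required, the counts were 0 higher in CAL27 cells, 0 higher and 1 lower in HSC3 cells, 5 lower in the difference, 0 higher and 8 lower in the vehicle comparison and 0 in opposite directions. The count of genes higher in HSC3 cells, 1 as reported, was 2 with DESeq2's size factors, with no filter on low counts, with a count minimum of 50 and after division by counts per molecule, 3 with DESeq2 and 4 in the fit of all 12 libraries. That division scales all genes of a library alike, so it does not test the effect of copied reads on a gene. DESeq2 called 37 higher in CAL27 cells and 34 lower in HSC3 cells. With library totals the vehicle comparison gave 6 higher and a median of -0.56. In the 150 bases before the start, 33.3% of the members' promoters held the E2F letters, against 2.12% of all promoters.

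Leaving out each library in turn gave 35 to 38 higher and 0 lower in CAL27 cells (median 0.25 to 0.28), 1 to 3 higher and 26 to 34 lower in HSC3 cells (median -0.41 to -0.35), 0 to 1 higher and 38 to 42 lower in the difference (median -0.71 to -0.65), 11 higher and 29 to 32 lower in the vehicle comparison (median -0.33 to -0.27) and 20 to 26 in opposite directions. The 26 lower and the 20 in opposite directions came without HSC3 vehicle replicate 2, and the 3 higher without HSC3 DOX replicate 1.

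Changes of sign occurred only in genes without a call on either side. Most of these were near 0, while CDT1 in HSC3 cells had a large standard error (-0.09 ± 0.2). In CAL27 cells MCM5 was at -0.02 with library totals and -0.01 with a count minimum of 50 and after division by counts per molecule, and LIG1 was at -0.01 in these 3. Without 1 library, MCM5 ran from -0.07 to 0.04, LIG1 from -0.04 to 0.03, POLE2 from -0.02 to 0.05, POLD2 from -0.01 to 0.07 and RPA3 from -0.01 to 0.09. In HSC3 cells ORC2 was at 0.00 with DESeq2 and with its size factors. Without 1 library it ran from -0.08 to 0.06 there, and RPA3 from -0.05 to 0.12, CDT1 from -0.27 to 0.14, MCM7 from -0.13 to 0.06 and FEN1 from -0.10 to 0.02, the last 3 above 0 only without DOX replicate 1. In the difference RPA3 was at 0.00 with library totals, and without 1 library RPA3 ran from -0.07 to 0.10, ORC2 from -0.02 to 0.10 and ORC5 from -0.11 to 0.02. The cause was not tested.

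In HSC3 cells the deviations of same-numbered libraries had correlations of -0.03, 0.05 and -0.01, so the replicate numbers do not pair them. With the replicate number as a block, 1 was higher and 32 lower in HSC3 cells (median -0.40) and 24 were in opposite directions, with the call of RRM2 lost (adjusted p = 0.069). No paired analysis was possible in CAL27 cells or for the difference because the CAL27 DOX columns carry no number of their samples.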
